A study of Mus musculus with 6 samples.

Results

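The WNT system was followed through 50 genes, grouped by role into 12 ligands, 10 Frizzled receptors, 5 co-receptors, 11 antagonists, 5 genes of the R-spondin axis and 7 transducers, nuclear factors and feedback targets. They were taken by gene symbol, through the accession each array probe carries, and all 50 had at least 1 probe. Of these, 47 gave a signal well above background on 3 or more arrays and were tested among 25777 genes and transcripts. The cells came from mesenteric fat and were its stromal vascular fraction, a mix of progenitors, mesothelium, vessels and immune cells that remains when adipocytes are removed after collagenase digestion. All mice were male and of the C57BL/6JHamSlc-ob/ob strain, so both groups lacked functional leptin and were obese. The propolis group received an ethanol extract of Brazilian propolis, a resin collected by bees, at 100 mg/kg by intraperitoneal injection 2 times a week for 12 weeks. The vehicle group received the carrier, which held DMSO and ethanol at low concentration, and each group had 3 samples, each on an array of its own. How many mice a sample holds is not stated in the labels, so every p-value below measures the spread between these 6 samples, which may be in part technical.

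WNT proteins are lipid-modified secreted ligands. In the branch that runs through beta-catenin, a ligand joins a Frizzled receptor to LRP5 or LRP6, beta-catenin escapes degradation, and TCF and LEF factors switch on target genes, several of which, such as Axin2, Nkd1, Notum and Znrf3, feed back on the pathway. Other branches run through Frizzleds with ROR2 or RYK and act on cell shape and polarity. Secreted Frizzled-related proteins and Dickkopf proteins hold the signal down from outside the cell, and R-spondins raise it by keeping receptors on the surface. In fat, signalling through beta-catenin is known to hold precursor cells back from becoming adipocytes, and Wnt10b is the ligand best known for this.

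Each value is a log2 intensity minus the 75th percentile of its array, listed as vehicle 1, 2 and 3 and then propolis 1, 2 and 3, and a difference is propolis minus vehicle on that log2 scale. A gene is said to have risen or fallen where limma's adjusted p, over all genes tested, was under 0.05, and every ± is an SD with n = 3. A probe's brightness depends on its sequence, so levels are compared between arrays and never between genes.

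The arrays differed in more than treatment. Their 75th percentile of intensity ran from 525.8 to 858.9, and 61.1% to 66.7% of the 59305 spots were bright enough to count as well above background. The arrays numbered 1 and 2 of both groups were on slide 1 and in scan 1, while those numbered 3 were on slide 2 and in scan 2. Pancreatic acinar markers averaged 4.45 in vehicle 2 and between -3.56 and -2.70 on the other 5 arrays. Intestinal epithelial markers averaged 4.24 in vehicle 3 and between -3.73 and -0.90 elsewhere. B cell markers averaged -0.02, 2.13 and -2.16 in vehicle and -3.01, -2.49 and -1.92 in propolis. All 10 markers of progenitors and fibroblasts and all 8 measured macrophage markers were well above background on all 6 arrays. So were all 9 adipocyte markers, although adipocytes are removed from this fraction. The adipocyte markers averaged 1.66 to 2.78 on vehicle arrays against 0.89 to 1.78 on propolis arrays, and all 9 had lower means in propolis, none of which passed the test. In such bulk samples, fewer cells of a type and less RNA per cell cannot be told apart.

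With propolis, 5 genes of the WNT set rose and none fell. They were the ligand Wnt4, the receptors Fzd1 and Fzd3, and the secreted antagonists Sfrp1 and Sfrp2, with differences of 1.54 to 3.82. These 5 make up 10.6% of the 47 measured, beside 0.819% of all genes tested (211 of 25777), of which 0.706% were higher and 0.113% lower. At an adjusted p under 0.1 there were 10, beside 1.90% of all genes. At an unadjusted p under 0.05 there were 18, 15 of them higher and 3 lower, beside 11.6% of all genes. The 2 groups did not overlap for 17 of the 47 (36.2%), 14 higher and 3 lower, beside 17.2% of all genes. Of those 3, Wnt10a and Fzd10 were well above background on 3 vehicle arrays and 1 propolis array, so they entered only through the group in which they were higher. Over the 47 the median difference was 0.34, with 34 means higher and 13 lower, and over all genes tested it was -0.02. The genes of the set were chosen with earlier results of these data known, so no test of the set was made.

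**Figure D1:**
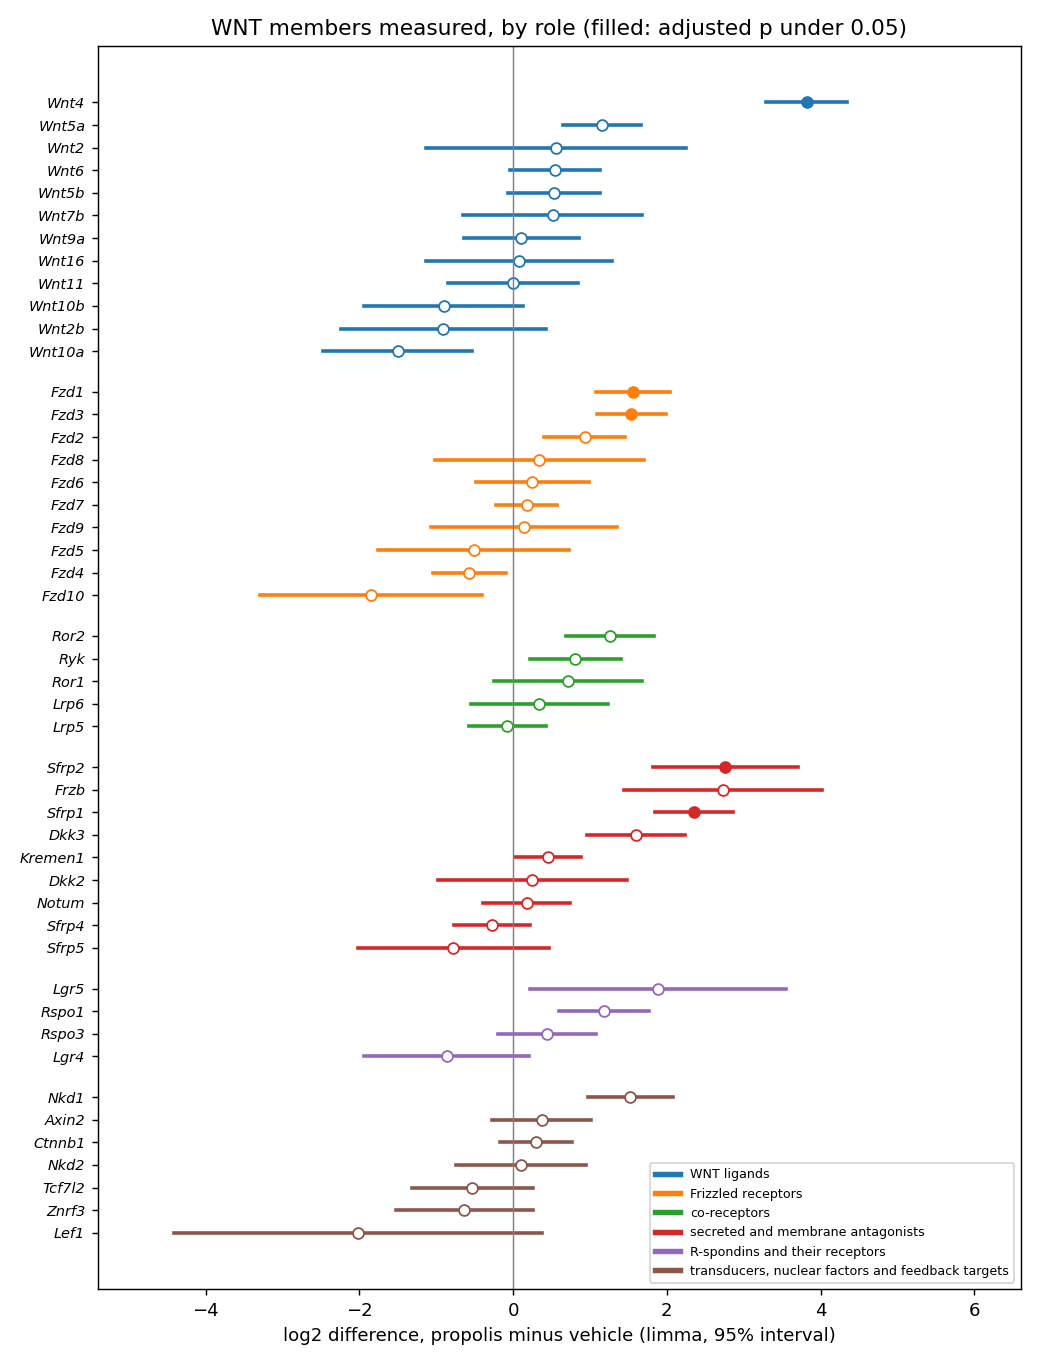
Each row is 1 of the 47 measured WNT genes, grouped and coloured by role, and the x axis is the log2 difference, propolis minus vehicle, from limma. Lines are 95% intervals and filled points are the 5 genes with an adjusted p under 0.05. Wnt4 stands farthest to the right at 3.82, and no filled point lies left of 0.

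Wnt4 gave the largest difference among the WNT genes. It encodes a ligand known for its part in the development of the kidney, the gonad and the female reproductive tract. Its values were 0.78, 0.11 and 0.44 in vehicle and 4.36, 4.24 and 4.18 in propolis (probe A_66_P139703). The groups did not overlap, and the spread was smaller in propolis. The mean went from 0.44 ± 0.33 to 4.26 ± 0.09, a difference of 3.82 (95% interval 3.29 to 4.34), or 14.1-fold, with a limma adjusted p of 0.00649. Among all 25777 genes and transcripts it ranked 3 by p and 25 by size of rise. A separate probe for Wnt4, A_51_P130475, differed by 3.79 with an adjusted p of 0.0069. The difference was 3.85 within slide 1 and 3.74 within slide 2, and with vehicle 2 and vehicle 3 left out together it was 3.48. Wnt4 passed with each of the 6 arrays left out in turn, at adjusted p of 0.0271 to 0.0487.

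Promoter windows are shown for Wnt4, Fzd1 and Sfrp2, the risen genes for which a window was found. They come from RefSeq for the GRCm38.p6 assembly and run from 250 bases before to 50 after the annotated start, 300 bases in all, read 5′ to 3′ on the gene's own strand. Capitals mark each CG dinucleotide. Windows were found for 32 of the 50 genes, and none was found for Fzd3 and Sfrp1.
Wnt4, chr4:137277385-137277684, plus strand: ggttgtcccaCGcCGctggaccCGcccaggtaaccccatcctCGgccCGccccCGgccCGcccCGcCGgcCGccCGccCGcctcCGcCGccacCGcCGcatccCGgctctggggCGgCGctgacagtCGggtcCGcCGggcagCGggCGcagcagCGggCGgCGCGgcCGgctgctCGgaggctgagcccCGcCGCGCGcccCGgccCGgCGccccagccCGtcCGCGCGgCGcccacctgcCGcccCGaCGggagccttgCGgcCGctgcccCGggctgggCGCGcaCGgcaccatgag
Fzd1, chr5:4758167-4758466, minus strand: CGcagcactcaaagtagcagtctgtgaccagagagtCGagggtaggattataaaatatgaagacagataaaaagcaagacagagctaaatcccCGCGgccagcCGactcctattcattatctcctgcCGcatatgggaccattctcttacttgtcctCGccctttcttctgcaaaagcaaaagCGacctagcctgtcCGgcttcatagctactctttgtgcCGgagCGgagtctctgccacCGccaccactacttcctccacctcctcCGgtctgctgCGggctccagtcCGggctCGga
Sfrp2, chr3:83766071-83766370, plus strand: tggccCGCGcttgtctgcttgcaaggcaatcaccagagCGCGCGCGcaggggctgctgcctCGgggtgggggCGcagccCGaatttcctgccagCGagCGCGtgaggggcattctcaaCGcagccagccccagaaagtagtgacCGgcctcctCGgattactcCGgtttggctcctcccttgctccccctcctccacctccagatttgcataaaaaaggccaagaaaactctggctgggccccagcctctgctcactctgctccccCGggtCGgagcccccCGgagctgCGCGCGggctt
The Wnt4 window held 51 CG dinucleotides, more than 99.3% of the 32851 mouse promoter windows of the same length. Fzd1 held 16, more than 67.0%, and Sfrp2 held 22, more than 76.9%. The median was 24.5 over the 40 windows of the WNT genes and 7 over all windows. The core letters bound by TCF and LEF factors were searched as CTTTGAT or else CTTTGTT or else CTTTGAA or else CTTTGTA on both strands, and 16.9% of all windows held at least 1. Of the 40 windows of WNT genes, 6 held it, in Dkk1, Fzd7, Lef1, Tcf7l2, Wnt11 and Wnt5b. These letters were in none of the 3 windows printed.

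Among the other 11 ligands none passed the test. Wnt5a, the ligand best known for signalling without beta-catenin, read 1.48, 1.79 and 1.72 in vehicle and 2.65, 3.15 and 2.65 in propolis. All propolis arrays were above all vehicle arrays, and the difference of 1.15 (0.64 to 1.66) had a limma adjusted p of 0.0853. Wnt10a, a relative of Wnt10b, read -4.41, -3.47 and -5.00 in vehicle and -6.03, -5.84 and -5.52 in propolis. Here the vehicle arrays were the higher ones, but only 1 propolis array stood well above background, and the difference of -1.50 had an adjusted p of 0.203. The remaining 9 ligands, Wnt2, Wnt2b, Wnt5b, Wnt6, Wnt7b, Wnt9a, Wnt10b, Wnt11 and Wnt16, overlapped between groups. Their differences ran from -0.91 to 0.56, 7 higher and 2 lower, with adjusted p of 0.464 or more. Wnt10b differed by -0.90, with a 95% interval of -1.93 to 0.13 that includes 0.

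Of the 10 Frizzled receptors, the seven-pass membrane proteins that bind WNT ligands, Fzd1 and Fzd3 rose. Fzd1 values were 2.46, 2.56 and 2.19 in vehicle and 4.22, 3.85 and 3.83 in propolis. The lowest propolis array lay above the highest vehicle array by more than either group's SD, which was 0.19 in vehicle and 0.22 in propolis. The difference was 1.56 (1.08 to 2.05), or 2.96-fold, with a limma adjusted p of 0.0335, and it was 1.53 within slide 1 and 1.64 within slide 2. Fzd3, best known for guiding axons and cell polarity, gave a dimmer signal of -3.21, -3.60 and -3.24 in vehicle and -1.94, -1.75 and -1.74 in propolis. All 6 arrays were well above background and the groups did not overlap. Its difference was 1.54 (1.09 to 1.98), or 2.90-fold, with an adjusted p of 0.0297, and it was 1.56 within slide 1 and 1.49 within slide 2. With single arrays left out neither gene passed, at adjusted p of 0.0663 to 0.149 for Fzd1 and 0.0668 to 0.134 for Fzd3. Under a normexp background correction the Fzd3 difference was 0.94 and did not pass.

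**Figure D2:**
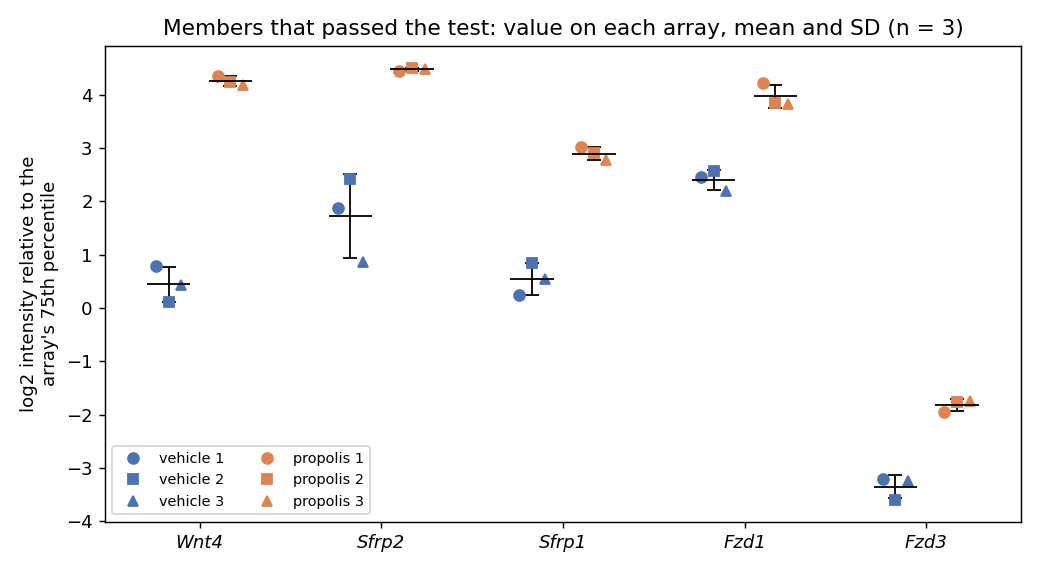
The y axis is the log2 intensity relative to the array's 75th percentile for the 5 WNT genes that rose, with blue vehicle and orange propolis arrays, a line at each mean and bars of 1 SD (n = 3). For every gene the 3 propolis arrays lie above the 3 vehicle arrays, and Sfrp2 has the widest vehicle spread at 0.79.

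Other Frizzleds differed in both directions without passing. Fzd2 read 1.27, 1.42 and 1.72 in vehicle and 2.38, 2.15 and 2.68 in propolis, a difference of 0.93 with a limma adjusted p of 0.158. Fzd4, which also serves as the receptor of norrin in vessels, read 3.35, 3.096 and 3.20 in vehicle and 2.36, 2.74 and 2.85 in propolis. Its propolis arrays were all below its vehicle arrays, and the difference of -0.57 (-1.05 to -0.09) had an adjusted p of 0.337. All 8 measured blood endothelial markers had lower means in propolis, and their average was 1.89 to 2.46 on vehicle arrays against 0.92 to 2.03 on propolis arrays; their part in the Fzd4 value was not tested. Fzd10 read -4.36, -4.05 and -5.24 in vehicle and -7.64, -6.04 and -5.52 in propolis, where only 1 array stood well above background. That difference was -1.85 with an adjusted p of 0.299. Fzd5, Fzd6, Fzd7, Fzd8 and Fzd9 overlapped between groups, with differences of -0.51 to 0.34 and adjusted p of 0.768 or more. For Fzd7 these are values of the brighter probe, which differed by 0.17. A dimmer one differed by 1.03 without overlap, with an adjusted p of 0.226 in limma over all probes that entered.

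None of the 5 co-receptors passed the test. An unadjusted p under 0.05 was reached by 2 (40%), Ror2 and Ryk, beside 11.6% of all genes. Ror2, a receptor tyrosine kinase that binds Wnt5a, read 0.26, 0.28 and -0.30 in vehicle and 1.09, 1.57 and 1.36 in propolis. The difference was 1.26 (0.68 to 1.84) with a limma adjusted p of 0.0917. Ryk, a kinase-related WNT receptor, read 1.96, 1.91 and 1.86 in vehicle and 3.11, 2.77 and 2.27 in propolis. The SD was 0.05 in vehicle and 0.42 in propolis, the groups did not overlap, and the difference of 0.81 had an adjusted p of 0.262. Lrp5, Lrp6 and Ror1 overlapped between groups and differed by -0.07 to 0.71. For Lrp5, the beta-catenin co-receptor with the narrowest interval, the difference of -0.07 lay within -0.57 to 0.42.

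The antagonists held both the second and the third largest rises among the WNT genes that passed. Sfrp2, a secreted protein that binds WNT ligands with a domain like that of the Frizzleds, read 1.87, 2.43 and 0.87 in vehicle and 4.45, 4.51 and 4.48 in propolis. The SD was 0.03 in propolis and 0.79 in vehicle, where vehicle 3 was lowest. The mean went from 1.72 to 4.48, a difference of 2.76 (1.82 to 3.70), or 6.77-fold, with a limma adjusted p of 0.0441. The difference was 2.33 within slide 1 and 3.61 within slide 2. Sfrp1, a close relative, read 0.24, 0.84 and 0.55 in vehicle and 3.01, 2.90 and 2.77 in propolis. Its groups were tight and far apart, at 0.54 ± 0.30 against 2.90 ± 0.12. The difference was 2.36 (1.85 to 2.86), or 5.12-fold, with an adjusted p of 0.0161, and it was 2.42 within slide 1 and 2.23 within slide 2. With single arrays left out Sfrp1 passed only without propolis 3, at adjusted p of 0.0427 to 0.0867 over the 6, and Sfrp2 passed in none, at 0.0552 to 0.155.

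Further antagonists stood higher without passing. Frzb, the third secreted Frizzled-related protein of this kind, read -5.11, -3.93 and -4.79 in vehicle and -0.80, -2.45 and -2.38 in propolis. The groups did not overlap, but propolis 1 was well above the other 2, and the difference of 2.73 (1.45 to 4.01) had a limma adjusted p of 0.0982. Dkk3, a Dickkopf relative that does not share the LRP binding of Dkk1, read 2.83, 3.28 and 2.46 in vehicle and 4.26, 4.73 and 4.39 in propolis. Its difference was 1.60 (0.97 to 2.24) with an adjusted p of 0.0639. Kremen1, the membrane receptor through which Dickkopf proteins remove LRP6, read 1.68, 1.70 and 1.77 in vehicle and 1.98, 2.14 and 2.40 in propolis. That is a small separation of 0.46, with an adjusted p of 0.403. Sfrp4, Sfrp5 and Dkk2 overlapped, with differences of -0.78 to 0.25, and so did Notum, described below with the feedback genes. Wif1 and Dkk1, secreted inhibitors of the ligand and of LRP6, were well above background on 0 of 6 arrays and were not tested.

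**Figure D3:**
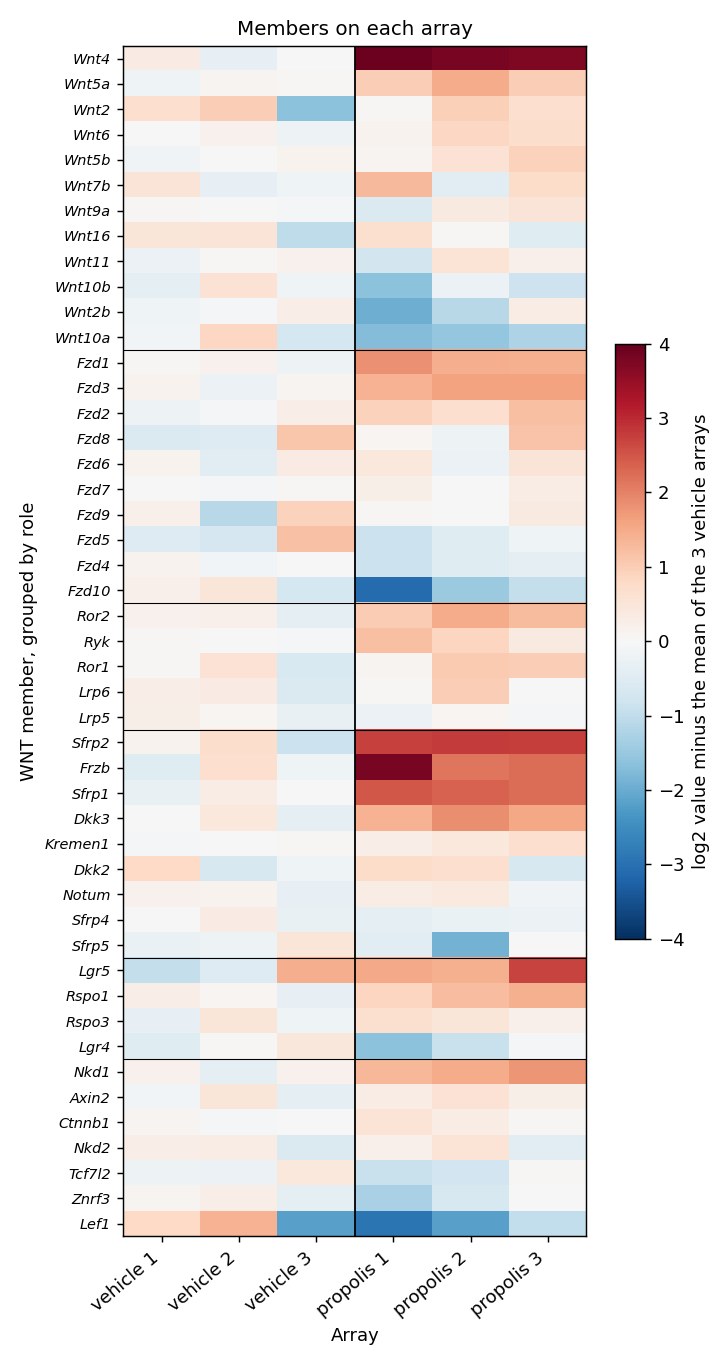
Rows are the 47 measured WNT genes grouped by role, columns are the 6 arrays, and colour is the log2 value minus the mean of the 3 vehicle arrays. Wnt4, Sfrp1, Sfrp2 and Frzb are red on all 3 propolis arrays, and Lef1 is blue on vehicle 3 as well as on the propolis arrays.

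In the R-spondin axis none of the 4 measured genes passed. An unadjusted p under 0.05 was reached by 2 (50%), beside 11.6% of all genes. Rspo1, a secreted protein that raises WNT signalling through LGR receptors, read 3.77, 3.58 and 3.19 in vehicle and 4.36, 4.76 and 4.95 in propolis. The propolis arrays were all higher, and the difference of 1.18 (0.59 to 1.76) had a limma adjusted p of 0.111. Lgr5, an R-spondin receptor known as a marker of intestinal stem cells, read -4.82, -4.39 and -2.41 in vehicle and -2.37, -2.45 and -1.17 in propolis. It had one of the larger differences, 1.88, but vehicle 3 lay above propolis 2, and the limma adjusted p was 0.368. Intestinal markers averaged highest on vehicle 3, at 4.24, and lowest on propolis 3, at -3.73, where Lgr5 was highest. Their part in the Lgr5 values was not tested. Lgr4 differed by -0.87 and Rspo3 by 0.44, both with overlap. Rspo2 was well above background on 0 of 6 arrays.

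The transducers, nuclear factors and feedback targets held no gene that passed. Transcripts of the feedback targets are often read as a gauge of beta-catenin signalling. The group also holds Ctnnb1 and Tcf7l2, while Notum was counted with the antagonists. Of the 7, 1 (14.3%) had an unadjusted p under 0.05, beside 11.6% of all genes. Their median difference was 0.10, which is the value of the brighter Nkd2 probe, while a dimmer Nkd2 probe differed by 1.63. Nkd1, an inhibitor that binds Dishevelled, came closest, at 0.33, -0.21 and 0.33 in vehicle and 1.48, 1.64 and 1.90 in propolis. Its groups did not overlap, and its difference of 1.53 (0.98 to 2.08) had a limma adjusted p of 0.0508. With slide as a block this became 0.0464, with replicate number as a block 0.0927, and with single arrays left out it was 0.0894 to 0.179. A dimmer Nkd1 probe differed by 1.48 without overlap, with an adjusted p of 0.399 in limma over all probes that entered. Axin2, the destruction complex scaffold most often used as a target of the pathway, read -1.61, -1.01 and -1.88 in vehicle and -1.20, -0.91 and -1.28 in propolis. The arrays overlapped, and the difference of 0.37 (-0.27 to 1.01) had an adjusted p of 0.688. A dimmer Axin2 probe differed by -0.61, so the probes disagreed in direction.

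Other feedback genes also overlapped between groups. Notum, an enzyme that removes the lipid from WNT ligands, read 3.22, 3.19 and 2.71 in vehicle and 3.33, 3.43 and 2.90 in propolis, a difference of 0.18 (-0.39 to 0.75). Nkd2 read 4.68, 4.72 and 3.84 in vehicle and 4.60, 4.95 and 4.001 in propolis, a difference of 0.10 (-0.74 to 0.95). Its vehicle 3 and propolis 3 arrays, which shared slide 2, were the low ones of their groups. A dimmer Nkd2 probe, A_55_P2143282, read -2.90, -2.27 and -2.77 in vehicle and -1.36, -1.004 and -0.69 in propolis, without overlap, and differed by 1.63 with an adjusted p of 0.0650. Znrf3, the ubiquitin ligase that clears Frizzleds from the membrane, read -3.62, -3.48 and -4.13 in vehicle and -5.03, -4.39 and -3.72 in propolis. It differed by -1.16 within slide 1 and by 0.41 within slide 2, and by -0.64 over all arrays. The beta-catenin gene itself, Ctnnb1, differed by 0.30 (-0.17 to 0.77) and Tcf7l2 by -0.53 (-1.32 to 0.25). For Tcf7l2 the other 2 probes differed by 0.23 and 0.33, so its probes also disagreed in direction.

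Lef1 had the largest negative difference of the set and the widest interval. This transcription factor partners beta-catenin and is also abundant in immature and naive lymphocytes. It read 0.09, 0.69 and -2.86 in vehicle and -3.60, -2.87 and -1.67 in propolis. Vehicle 1 and vehicle 2 were high, and vehicle 3 lay among the propolis arrays. The difference was -2.02 (-4.40 to 0.37) with a limma adjusted p of 0.519, and it was -3.62 within slide 1 and 1.19 within slide 2. Tcf7, its relative in T cells, read 0.08, 0.79 and -1.80 in vehicle and -2.14, -1.72 and -0.96 in propolis. T cell markers, a list that holds Lef1's relative Tcf7, averaged 1.27, 1.71 and 0.33 in vehicle and -0.26, 0.33 and 0.79 in propolis. All 8 measured T cell markers and all 6 measured B cell markers had lower means in propolis, none passed the test, and their part in the Lef1 value was not tested.

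**Figure D4:**
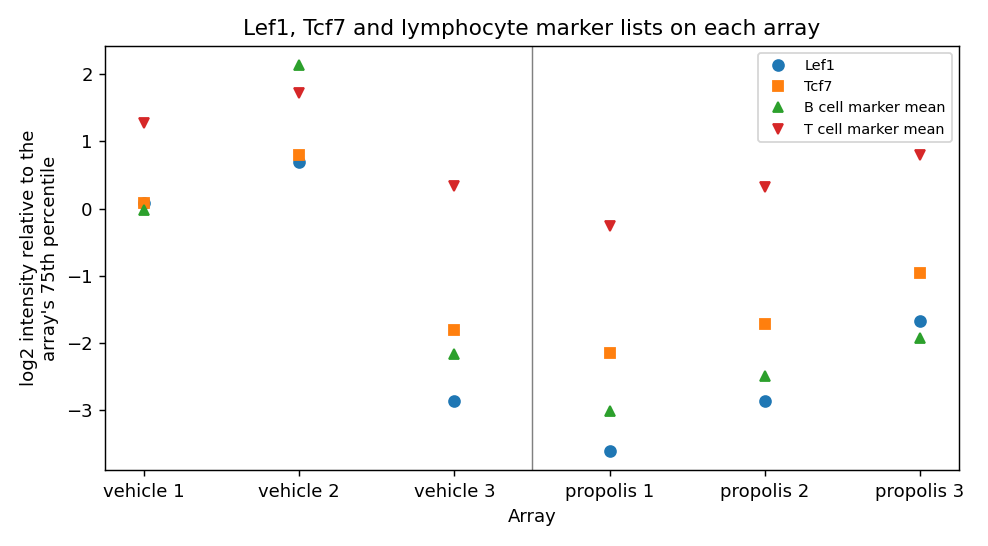
The y axis is the log2 intensity relative to the array's 75th percentile on each of the 6 arrays, for Lef1, Tcf7 and the mean of the B cell and T cell marker lists. All 4 are highest on vehicle 2, and Lef1 on vehicle 3 (-2.86) lies at the level of propolis 2 (-2.87).

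Of 12 mesothelial markers listed, 11 were measured. Wt1 and Bnc1 rose, beside 0.819% of all genes called, and 9 of the 11 had higher means in propolis, while Krt8 and Cldn15 had lower ones. Their average was 0.85, -0.39 and 1.50 in vehicle and 1.84, 1.33 and 2.24 in propolis, so vehicle 3 lay above propolis 2. Wt1, a transcription factor of mesothelium and visceral stroma, differed by 1.96 with a limma adjusted p of 0.037. With single arrays left out Wt1 did not pass, at 0.0596 to 0.149. Bnc1, a mesothelial and epithelial factor, differed by 2.85 with an adjusted p of 0.0301. With single arrays left out Bnc1 passed only without vehicle 1, at 0.0462 to 0.133 over the 6. The keratins Krt8, Krt18 and Krt19, which intestinal epithelium shares, were highest on vehicle 3. The part of intestinal RNA in the mesothelial average was not tested. The averages of progenitor and fibroblast markers overlapped, at 4.82, 4.99 and 4.88 in vehicle and 4.67, 4.83 and 5.03 in propolis, and none of 10 passed. Of these 10, 3 had higher means in propolis and 7 lower. Among the higher ones, Col1a1 differed by 0.61 and Col3a1 by 0.48, both without overlap, at limma adjusted p of 0.335 and 0.411. Whether more mesothelial RNA had a part in the rises of Wnt4, Sfrp1, Sfrp2, Fzd1 and Fzd3 was not tested.

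Beyond the 50 genes, 108 further genes of the pathway were listed, and 92 were measured. Of these 1 rose (1.09%, beside 0.819% of all genes) and none fell. An unadjusted p under 0.05 was reached by 18 (19.6%, beside 11.6% of all genes), 13 higher and 5 lower, and the median difference was -0.02, with 46 means higher and 46 lower. The one that rose was Ccn4, also called Wisp1, a secreted matrix-associated protein first described as induced by Wnt1. It read -0.33, -0.18 and -0.55 in vehicle and 3.16, 3.74 and 2.59 in propolis, without overlap. The difference was 3.52 (2.76 to 4.27), or 11.5-fold, with a limma adjusted p of 0.0161, and with single arrays left out it passed only without propolis 3, at 0.0271 to 0.0776. Its relative Ccn5 (Wisp2) differed by 1.82 with an adjusted p of 0.0639.

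Among the 92 further genes the 2 groups did not overlap for 25 (27.2%), 17 higher and 8 lower, beside 17.2% of all genes. Besides Ccn4 and Ccn5, those of lowest p are given here, and none of them passed. The polarity gene Prickle1 differed by 1.07 (limma adjusted p 0.0577), and the mesenchymal factor Twist1 by 1.26 (0.0847). The TNF receptor relative Tnfrsf19 differed by 1.93 (0.0902), the growth factor binding protein Igfbp4 by 1.04 (0.0998) and the nuclear partner Pygo1 by 1.14 (0.146). Ccnd1, the cyclin D1 gene and a classical target of beta-catenin, was lower on every propolis array, at 2.73, 2.25 and 2.75 against 1.70, 1.76 and 1.74, a difference of -0.84 with an adjusted p of 0.158. Of the 20 measured target genes Ccn4 alone passed (5%, beside 0.819% of all genes). None of the 22 genes of the cytoplasmic transduction machinery passed. An unadjusted p under 0.05 was reached by 3 of them (13.6%), beside 11.6% of all genes. The 12 nuclear partners and the 17 genes of the polarity and calcium branches also held none that passed. At an unadjusted p under 0.05 they held 2 (16.7%) and 1 (5.88%), beside the same 11.6%.

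The calls rest on few arrays. With slide as a block all 5 genes still passed, at limma adjusted p of 0.017 for Wnt4, 0.0247 for Sfrp1, 0.0324 for Fzd1, 0.0347 for Fzd3 and 0.0436 for Sfrp2. With replicate number as a block, a pairing that the labels do not state, only Wnt4 passed. With single arrays left out, 1 or 2 of the 47 genes passed, beside 11 to 91 of all genes tested, and Wnt4 was the one that passed each time. The lowest count over all genes, 11, came without vehicle 2, and counts of 13 and 16 came without propolis 2 and vehicle 3. In slide 1 alone, with 2 arrays a group, no gene of the 25777 passed, while 23 of the 47 and 5913 of all genes had an unadjusted p under 0.05 in limma. Without vehicle 2 and vehicle 3 together none passed either, 14 of the 47 and 1361 of all genes had an unadjusted p under 0.05, and the median difference over the 47 was 0.15; the single vehicle array is there taken to vary like the rest.

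**Figure D5:**
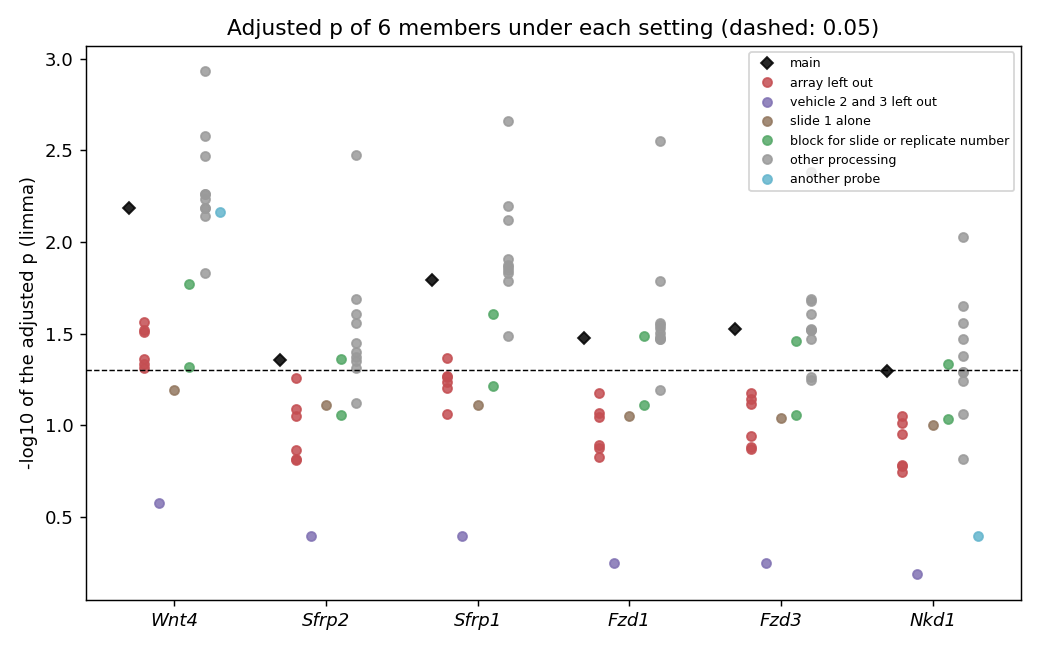
The y axis is minus log10 of the limma adjusted p for Wnt4, Sfrp2, Sfrp1, Fzd1, Fzd3 and Nkd1, with 1 point for each processing alternative and black diamonds for the reported fit. The dashed line is 0.05, and only Wnt4 lies above it with each of the 6 arrays left out.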

How the data were processed

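RNA from 3 vehicle and 3 propolis samples was hybridised to 1-colour Agilent arrays, read with Feature Extraction 10.7.3.1 per the file headers. The deposited scanner tables hold the authors' processed signal, a background-corrected intensity on a linear scale. As an alternative, the authors' log2 values in the deposited series table were used; it correlated with the scanner log2 values at about 1, with array medians of -3.95 to -3.61. Signals were turned to log2, non-uniform spots left out, spots of a probe averaged, and each array's 75th percentile subtracted. Probes well above background on at least 3 of 6 arrays entered (34786 of 55681, 4 dropped for missing values), and the brightest stood for its gene. Symbols came from RefSeq accessions or, where these gave none, from Ensembl identifiers, and 15772 of 25777 genes and transcripts had one. The rest were tested under their own identifier and are part of every share of all genes. Groups were compared with limma 3.58.1 (R 4.3.3, lmFit and eBayes, no block) and Benjamini-Hochberg adjustment over all. An exact permutation p cannot go below 0.1 here. The fit was tested on simulated data.

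Members and lists were chosen with earlier results of these data known. Described in full were members that passed, those with an unadjusted p under 0.05 and no overlap, the 3 largest differences either way, and Axin2, Lef1, Nkd1, Nkd2, Notum and Znrf3. Of the other pathway genes, those that passed and up to 8 of lowest p without overlap were named. Lgr5, Tcf7, Ctnnb1, Tcf7l2, Lrp5 and Wnt10b were named after their values were seen. Alternatives covered background, scaling, filter, flags, probe rule, variance model, array weights, slide, replicate number and arrays left out.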

Additional observations from a re-analysis of the deposited data

How the results depend on the processing

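The reported counts were 5 WNT genes, 211 of all genes and 1 other pathway gene. Leaving out single arrays gave 1 to 2, 11 to 91 and 0 to 1. Slide 1 alone gave 0, 0 and 0, as did leaving out vehicle 2 and vehicle 3 together. The labels do not say that the replicate numbers pair the samples. Deviations of same-numbered arrays correlated at 0.0359, 0.291 and 0.135. Arrays numbered 2 and 3 correlated best with their own number, and those numbered 1 did not. A replicate block gave 1 WNT gene (Wnt4) and 29 of all genes. Sfrp1, Fzd1, Fzd3 and Sfrp2 then had limma adjusted p of 0.0607, 0.077, 0.0875 and 0.0883. A slide block gave 6 WNT genes, 294 of all and 6 others. Array weights gave 22, 3200 and 23, with 48.8% of all calls higher, beside 86.3% in the reported fit. Median scaling, which moved the median of all genes to 0.15, gave 9, 317 and 2. No filter on dim probes gave 2 (Wnt4 and Sfrp1) and 96. An intensity trend with robust variance gave 8 and 299, with 3 others. Normexp and quantile scaling each gave 2 others. An adjusted p under 0.1 gave 10, 489 and 6, and an unadjusted p under 0.05 gave 18, 2991 and 18. The median over the WNT genes was lowest at 0.15, without vehicle 2 and 3.

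Among the 22 WNT genes described in full, signs turned for 3, none of which passed the test in any setting: Nkd2 ran from -0.18 (without vehicle 3) to 0.36 with single arrays left out, and was -0.11 without propolis 2 and -0.16 without vehicle 2 and 3 together. Notum was -0.00639 in that last setting, and Axin2 was -0.12 as a mean of probes and -0.61 on probe A_66_P134405. The cause was not tested. Of the values for those 22 genes, 371 kept direction and side of the threshold, 41 lost and 26 gained the call, and 6 turned. Among the 25 other measured WNT genes, 12 changed sign in at least 1 setting. Precision is limited by 3 arrays a group. Signal near background limits Wnt10a, Fzd10, Wnt7b, Wnt2 and Fzd9, which were not well above background on all 6 arrays.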
